A study of Mus musculus with 7 samples.

Results

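Proteoglycans and matricellular proteins of the extracellular matrix were followed through a time course of dihydrotestosterone (DHT) in the mouse uterus. The 10 genes named for this group are Vcan, Dcn, Lum, Bgn, Sparc, Tnc, Spp1, Thbs1, Thbs2 and Fn1, and they were found by gene symbol among the probe sets of the array. Of these, 8 had a probe set that named them alone, out of 8251 genes so named on the array. Bgn and Tnc had 2 probe sets each, which made 10 probe sets in all. Thbs1 was named only by a probe set that also names Pald1, and that probe set is described apart. Spp1 was named by no probe set and is not analysed here.

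The DHT groups were uteri taken 1, 3, 6, 12, 18 and 24 h after 1 subcutaneous injection of 0.1 mg DHT per mouse, and the control group was uteri taken 24 h after an injection of vehicle. All 7 groups were C57BL/6 females whose ovaries had been removed 7 days before death, which takes away the ovarian source of estrogen and progesterone in every group. The labels give an age of 10 to 11 weeks, and also say that mice received at that age were kept for 4 weeks first. Each group was 1 Affymetrix U74Av2 array of RNA from pooled whole uteri, so single times have no replicates, and the number of mice in a pool is not settled by the labels. Titles and design text differ on 1 DHT group (18 h in the titles, 0.5 h in the text), and there the titles were used. The vehicle array is titled 0 h but its source label says 24 h after vehicle, and there the label was used. Only the 24 h group had a vehicle pool of the same time after injection, and at other times an effect of the injection itself cannot be told apart from one of DHT.

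These proteins fill the space between cells and set how cells hold to it. Proteoglycans carry long sugar chains. Versican binds hyaluronan and swells the matrix with water, and the small leucine-rich proteoglycans decorin, lumican and biglycan coat collagen fibrils and control their width. Matricellular proteins such as SPARC, tenascin C and the thrombospondins are secreted but build no fibres, and act on cell adhesion, growth factors and collagen assembly. In the uterus the stroma and the muscle layer make most of this matrix and rebuild it under steroid hormones.

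Values are the signals that the authors deposited, on a linear scale that gives every array the same trimmed mean, and they compare arrays but not 1 probe set with another. Before taking log2, any signal below a floor of 145.9 (percentile 40 over the table) was set to the floor. Of the probe sets other than controls, 8421 passed the filter on low signals, which asks for at least 1 array above the floor, and were tested. Among the 9 uterus markers, which include the steroid receptors Esr1 and Pgr and the uterine homeobox genes Hoxa10 and Hoxa11, 8 were on the array and each passed that filter. Ratios of 3 prime to 5 prime control signal were alike on the 7 arrays, at 0.828 to 0.888 for Gapdh and 1.03 to 1.19 for actin, while those for the transferrin receptor ranged from 1.70 to 6.85.

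Vcan and Sparc were about 2-fold above vehicle at 12, 18 and 24 h after DHT. The other members with a tested probe set of their own stayed within 1.64-fold between their lowest and highest array, apart from Thbs2 at 1.97-fold. Thbs2 differed the other way, with every late array below every early array. Dcn, Lum and Fn1 and the brighter Bgn probe set showed no common direction over the 6 times. None of these differences passed the adjusted test across all probe sets. Of the 10 member probe sets, 9 lay above the floor on all 7 arrays and were tested, and the second Tnc probe set lay under the floor on all 7.

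At 1, 3 and 6 h, 0 of the 9 member probe sets were at least 2-fold from vehicle, where 1.13, 2.01 and 2.45 percent of all tested probe sets were. At 12, 18 and 24 h, Vcan and Sparc were at least 2-fold higher, 2 of 9 at each time, against 1.75, 1.35 and 0.938 percent of all tested probe sets. None of the 9 member probe sets was 2-fold lower at these times, where 1.39, 1.06 and 0.986 percent were. The probe set shared by Pald1 and Thbs1, described apart, was at 0.406 of vehicle at 18 h. Being at least 2-fold above vehicle on all 3 late arrays was a feature of 32 tested probe sets, or 0.38 percent.

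**Figure D1:**
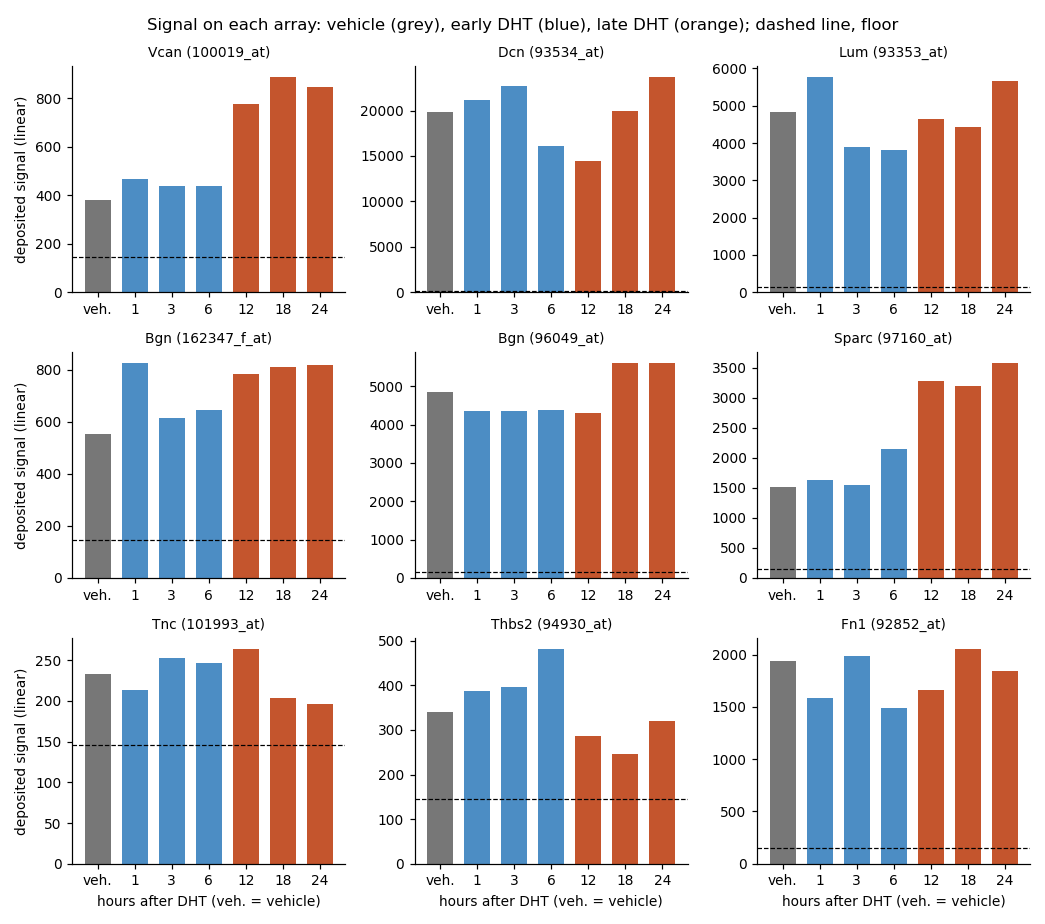
Deposited signal (linear scale, from 0) of the 9 tested member probe sets on each array, by hours after DHT. Grey is vehicle, blue the early and orange the late DHT arrays, the dashed line is the floor at 145.9, and each bar is 1 array. Vcan and Sparc are highest on the 3 late arrays, and Thbs2 is lowest there.

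Promoter sequences of these 3 genes are shown because they are the members whose late and early arrays did not overlap. They come from RefSeq on build GRCm38.p6, run 5′ to 3′ on the gene's strand, and hold 250 bases before the gene start and 50 after it. Vcan lies at chr13:89742463-89742762 on the minus strand, Sparc at chr11:55420031-55420330 on the minus strand and Thbs2 at chr17:14694213-14694512 on the minus strand. Capitals mark matches, on either strand, to the full androgen response element (AGAACA, 3 bases of any kind, TGTTCT), its 6-base core TGTTCT, the TATA box TATAAA or the AP-1 site TGANTCA. The core is part of the full element, so these 2 searches overlap.
Vcan: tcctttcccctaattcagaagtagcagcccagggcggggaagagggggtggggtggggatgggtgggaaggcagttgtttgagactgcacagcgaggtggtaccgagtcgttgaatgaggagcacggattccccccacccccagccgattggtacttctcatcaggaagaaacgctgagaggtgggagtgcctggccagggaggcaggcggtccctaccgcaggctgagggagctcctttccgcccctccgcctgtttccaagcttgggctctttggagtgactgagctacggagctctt
Sparc: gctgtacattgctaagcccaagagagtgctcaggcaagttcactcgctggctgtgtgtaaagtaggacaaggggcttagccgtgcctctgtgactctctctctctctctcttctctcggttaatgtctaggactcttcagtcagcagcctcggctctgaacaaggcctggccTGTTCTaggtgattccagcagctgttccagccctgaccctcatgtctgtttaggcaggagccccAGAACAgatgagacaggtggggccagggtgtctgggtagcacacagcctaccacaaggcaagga
Thbs2: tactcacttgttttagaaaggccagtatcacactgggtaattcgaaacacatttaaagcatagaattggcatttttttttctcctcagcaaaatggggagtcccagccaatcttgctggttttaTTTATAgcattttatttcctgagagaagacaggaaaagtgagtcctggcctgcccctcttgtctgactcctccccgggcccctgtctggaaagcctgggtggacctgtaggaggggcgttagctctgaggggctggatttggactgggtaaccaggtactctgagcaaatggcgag

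The Sparc promoter held 2 core sites, 1 on each strand, while 19.0 percent of the 32851 promoters in the table held at least 1 and 2.54 percent held 2 or more. The Vcan promoter held none of the 4 motifs in this window. Thbs2 held 1 TATA box match on the opposite strand, a motif found in 13.6 percent of promoters. The full element was found in 3 promoters of the table, or 0.00913 percent, none of them a member's, and the AP-1 site in 7.81 percent. Promoters of 6 members were in the table, with 8 sequences between them. Besides Sparc, Bgn held 1 core site, and Tnc and Spp1 held a TATA box match. A match shows letters only and not binding.

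Tests set a late phase (the 3 arrays from 12 to 24 h) against an early phase (the 3 arrays from 1 to 6 h) or vehicle, in 1 limma fit over all 8421 probe sets. The error in these tests is the scatter of the times inside each phase, and vehicle, with a single array, is assumed to scatter as much. Adjusted p-values are by Benjamini-Hochberg over all tested probe sets, two-sided, with a threshold of 0.05. For late against early limma called 0 probe sets of the whole array, and 863, or 10.2 percent, had an unadjusted p under 0.05. It called 26 (0.309 percent) for late against vehicle and 23 (0.273 percent) for early against vehicle, all lower and none a member. Leaving out 1 array moved these 2 counts to between 0 and 73 and between 8 and 55. With 50 added to the signal in place of a floor they were 2 and 0. Signals under the floor share 1 value and so show no scatter, and the part of this in the calls was not tested.

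Vcan encodes versican, the large hyaluronan-binding proteoglycan of loose and growing matrix. Its signal was 379.6 on vehicle and 468.7, 437.9 and 436.8 after 1, 3 and 6 h, followed by 777.0, 887.9 and 845.6 after 12, 18 and 24 h. The 3 late arrays lay close together and above the other 4, and the 3 early arrays lay slightly above vehicle. The late mean was 836.8 ± 56.0, against 447.8 ± 18.1 in the early arrays (SD, n = 3 each).

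Late against early, Vcan was 1.87-fold higher (log2 difference 0.90 ± 0.10 SE, adjusted p = 0.174 in limma), and its unadjusted p ranked 5 among 8421. Late against vehicle it was 2.20-fold higher (log2 difference 1.14 ± 0.14 SE, adjusted p = 0.0627 in limma). Both missed the threshold. Late against vehicle passed with the floor at the 20th percentile (adjusted p = 0.0480), at the 60th (adjusted p = 0.0330) and with no filter on low signals (adjusted p = 0.0138). Late against early passed when 50 was added to the signal in place of a floor (adjusted p = 0.0386).

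Dcn, Lum and Bgn, the small leucine-rich proteoglycans, were within 2-fold of vehicle at all 6 times and shared no course. Dcn, for decorin, which binds collagen and TGF-beta, had signals of 19861.7 on vehicle and 21156.2, 22678.9 and 16112.6 after 1, 3 and 6 h, followed by 14415.6, 19919.6 and 23683.2 after 12, 18 and 24 h. It was lowest at 6 and 12 h and highest at 24 h, so both phases hold high and low arrays. Late against early its log2 difference was -0.06 ± 0.23 SE, with a 95 percent interval of -0.64 to 0.52, and the sign turned without the 3 h array (0.04) or the 12 h array (0.14). At 12 h, when Vcan and Sparc were above 2-fold, Dcn was at 0.726 of vehicle.

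Lum, for lumican, which keeps collagen fibrils thin and evenly spaced, had 4828.9 on vehicle and 5768.2, 3906.3 and 3806.5 after 1, 3 and 6 h, followed by 4632.4, 4436.7 and 5651.8 after 12, 18 and 24 h. The 1 h and 24 h arrays were the highest and the 3 h and 6 h arrays the lowest. Its late-minus-early log2 difference was 0.15 ± 0.19 SE, with a 95 percent interval of -0.33 to 0.62. The intervals of Dcn and Lum are wide, and a lack of change is not shown.

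Bgn, for biglycan, a collagen-binding proteoglycan that can also signal to immune cells, had 2 probe sets that disagreed. On the brighter one, signals were 4857.1 on vehicle and 4345.8, 4344.2 and 4390.4 after 1, 3 and 6 h, followed by 4304.5, 5605.5 and 5610.2 after 12, 18 and 24 h. The first 4 DHT arrays were level with each other and below vehicle, and the 18 and 24 h arrays stood at 1.15 and 1.16 of vehicle. On the dimmer one, signals were 551.8 on vehicle and 825.6, 613.9 and 643.3 after 1, 3 and 6 h, followed by 781.5, 808.4 and 819.2 after 12, 18 and 24 h. Every DHT array was above vehicle there, at 1.11 to 1.5 times. Its late-minus-vehicle log2 difference was 0.54 ± 0.19 SE (adjusted p = 0.369 in limma), against 0.08 ± 0.17 SE on the brighter set (adjusted p = 0.894 in limma). The name of the dimmer set carries an f, by which the maker marks probes that can match related sequences.

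**Figure D2:**
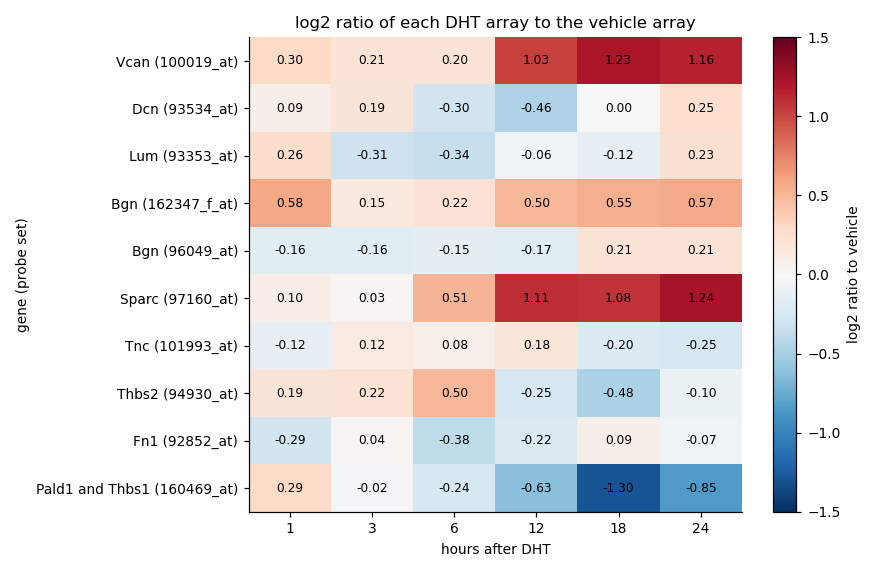
The log2 ratio of each DHT array to the vehicle array, by hours after DHT (columns) and probe set (rows), with red for higher and blue for lower than vehicle. Vcan and Sparc are at or above 1.03 from 12 h on, Bgn differs between its 2 probe sets, and the probe set shared by Pald1 and Thbs1 reaches -1.30 at 18 h.

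Sparc encodes osteonectin, a collagen-binding glycoprotein that helps collagen into fibrils. Its signal was 1512.1 on vehicle and 1624.2, 1546.2 and 2148.2 after 1, 3 and 6 h, followed by 3273.9, 3187.8 and 3578.6 after 12, 18 and 24 h. The 1 and 3 h arrays lay near vehicle, the 6 h array lay between the phases, and the 3 late arrays were all above the rest. The late mean was 3347 ± 205, against 1773 ± 327 in the early arrays (SD, n = 3 each).

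Sparc was 1.91-fold higher late against early (log2 difference 0.93 ± 0.14 SE, adjusted p = 0.212 in limma) and 2.21-fold higher late against vehicle (log2 difference 1.14 ± 0.20 SE, adjusted p = 0.151 in limma). Without 1 array or under another setting, its late-minus-early difference stayed between 0.84 and 1.08, with adjusted p between 0.0563 and 0.503. At 24 h, the time with a matched vehicle pool, Sparc was 2.37-fold and Vcan 2.23-fold above vehicle, each from 1 array on either side.

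Thbs2 encodes thrombospondin 2, which restrains the growth of vessels and shapes collagen fibrils. Its signal was 341.1 on vehicle and 388.1, 397.2 and 481.9 after 1, 3 and 6 h, followed by 286.8, 244.9 and 318.8 after 12, 18 and 24 h. All 3 early arrays were above vehicle and all 3 late arrays below it. Late against early it was at 0.670 of the level (log2 difference -0.58 ± 0.16 SE, adjusted p = 0.337 in limma). With the floor at the 60th percentile (359.1), vehicle and late arrays are all at the floor, and the difference between late and early is -0.23.

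Tnc encodes tenascin C, an anti-adhesive protein of growing and healing tissue. On its tested probe set the signal was 233.3 on vehicle and 214.0, 253.0 and 246.4 after 1, 3 and 6 h, followed by 264.2, 203.1 and 195.8 after 12, 18 and 24 h. All 7 values lay within 1.35-fold and near the floor. The 18 and 24 h arrays were the lowest and the 12 h array the highest. The other Tnc probe set lay between 16.8 and 53.6, under the floor throughout, and gives no ratio.

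The probe set that names both Pald1, a phosphatase-like protein gene, and Thbs1, for thrombospondin 1, which blocks vessel growth and activates TGF-beta, cannot be assigned to either. Its signal was 1311.5 on vehicle and 1601.2, 1290.7 and 1113.2 after 1, 3 and 6 h, followed by 850.0, 532.4 and 729.9 after 12, 18 and 24 h. The 3 late arrays were all below the other 4, and 18 h was the lowest at 0.406 of vehicle. Late against early its log2 difference was -0.93 ± 0.22 SE (adjusted p = 0.295 in limma), and late against vehicle it was -0.92 ± 0.31 SE (adjusted p = 0.355 in limma). Platelets carry much thrombospondin 1, and of the 6 platelet markers 3 were on the array and 0 of those passed the filter on low signals. The part of platelets in this probe set's signal was not tested.

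Fn1 encodes fibronectin, the adhesive glycoprotein that integrins gather into fibrils. Its signal was 1935.7 on vehicle and 1587.0, 1991.1 and 1488.9 after 1, 3 and 6 h, followed by 1662.5, 2057.1 and 1847.4 after 12, 18 and 24 h. It was lower than vehicle at 1, 6 and 12 h and near it at the other times. Late against early its log2 difference was 0.14 ± 0.14 SE (adjusted p = 0.761 in limma), with a 95 percent interval of -0.20 to 0.49.

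The step from 6 h to 12 h separated these genes. From the 6 h to the 12 h array, Vcan was higher by 0.83 and Sparc by 0.61 on the log2 scale, and Thbs2 was lower, at -0.75. At least 1.5-fold higher at 12 h than at 6 h were 2 of 9 member probe sets, against 3.44 percent of all, and 1 of 9 was at least 1.5-fold lower, against 2.38 percent. Sparc had also been 0.47 higher at 6 h than at 3 h, a step at which Vcan was level (0.00). Every late array above every early array was seen for Vcan and Sparc, 2 of 9, and for 8.18 percent of all tested probe sets. Without the 1 h array it was 4 of 9, and 13.0 percent of all. Every late array below every early array was seen for Thbs2, 1 of 9, and for 6.61 percent of all. Without the 12 h array it was 2 of 9, and 10.2 percent of all. Of these 3 genes, Vcan and Sparc had all late arrays above vehicle as well, as had 6.64 percent of all, and Thbs2 had them below it, as had 4.92 percent. For a single probe set with 3 arrays against 3, an exact two-sided permutation test cannot go below p = 0.10. These 3 genes reached it, as does any probe set whose late and early arrays do not overlap, so it adds nothing to that pattern.

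**Figure D3:**
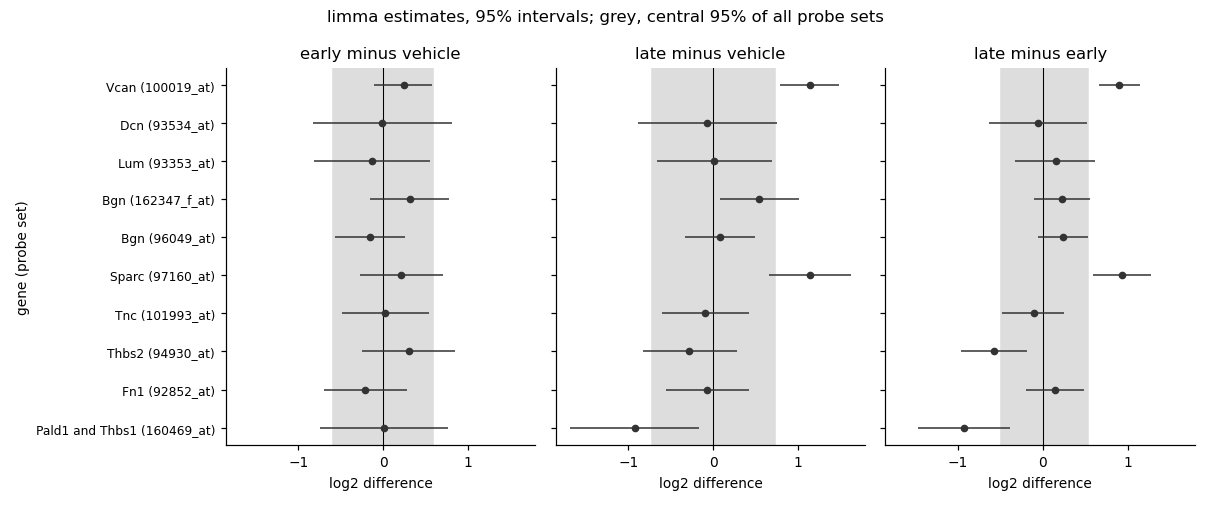
Estimates of the log2 difference from limma (points) with 95 percent intervals (lines) for each member probe set in 3 contrasts. The grey band holds the central 95 percent of all 8421 tested probe sets, which runs from -0.49 to 0.53 for late minus early. Vcan at 0.90 and Sparc at 0.93 lie above that band and Thbs2 at -0.58 below it.

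Early against vehicle, the members lay close to 0. Their log2 differences ran from -0.21 for Fn1 to 0.32 for the dimmer Bgn probe set, and 0 of 9 had an unadjusted p under 0.05, where 6.33 percent of all tested probe sets did. Late against vehicle, 3 of 9 were higher with an unadjusted p under 0.05 (Vcan, Sparc and the dimmer Bgn set), where 5.53 percent of all were. Late against early it was 2 higher (Vcan and Sparc) and 1 lower (Thbs2), where 5.76 and 4.49 percent of all were. By their brightest probe set, the 8 genes had a median late-minus-early log2 difference of 0.14, with 5 above 0, against a median of 0.00 over all 6326 genes, of which 48.4 percent were above 0.

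In whole uterus, more RNA per cell and more cells of a type cannot be told apart. Among the 10 fibroblast and stroma markers, 9 passed the filter. The fibrillar collagen genes of that list had their highest signals on late arrays. Col1a1, for a chain of type I collagen, was at 14378.8, 18558.3 and 17649.5 at 12, 18 and 24 h, against 6458.5, 8092.1 and 10846.5 at 1, 3 and 6 h. Late against early, its log2 difference was 1.02 ± 0.22 SE (adjusted p = 0.265 in limma), that of Col3a1 0.90 ± 0.11 SE (adjusted p = 0.194 in limma) and that of Col1a2 0.72 ± 0.11 SE (adjusted p = 0.212 in limma). The other 6 measured genes of the list lay on both sides of 0. Late-minus-early log2 differences were -0.12 ± 0.17 SE for Pdgfra, -0.28 ± 0.12 SE for Pdgfrb and -0.47 ± 0.08 SE for Thy1, which encode surface proteins. They were 0.22 for Mme, also a surface protein, 0.29 for Hoxa10 and 0.13 for Hoxa11. Over the list, 6 of 9 were above 0 with a median of 0.22, and its summed signal was 40640 to 47280 late, against 27660 to 33830 early and 26990 on vehicle. The late rise of this sum lies in the collagen genes, and the other 6 together were not higher late than early.

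Smooth muscle markers were higher late than early as well. All 8 that passed the filter were above 0 late against early, with a median log2 difference of 0.59. Part of this was a lower early level, as the early-minus-vehicle median was -0.14. Late against vehicle the median was 0.43, with 7 of 8 above 0 and Des at -0.01. Actg2, an actin of smooth muscle, reached 1.63 ± 0.19 SE (adjusted p = 0.174 in limma). The Actg2 probe set is of the kind that can match related sequences, so other actins may add to its signal. Their summed signal was 37680 to 51520 late, against 28420 to 29130 early and 31040 on vehicle. The part of muscle or stroma in the values of Vcan and Sparc was not tested. Epithelial (10 genes, median -0.01), endothelial (7 genes, median 0.00) and macrophage markers (9 genes, median -0.12) had medians near 0 late against early, and 4 of 10, 3 of 7 and 1 of 9 of them were above 0.

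**Figure D4:**
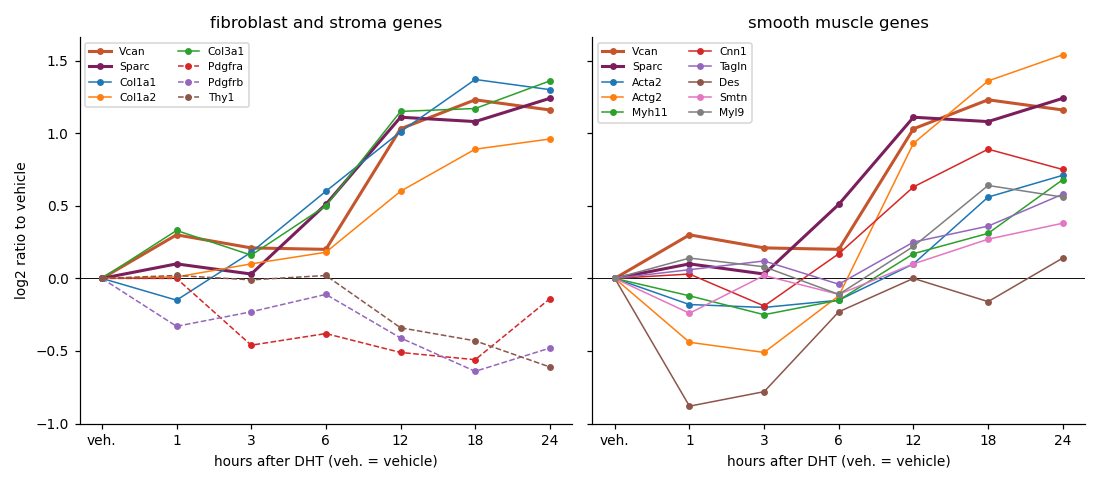
The log2 ratio to vehicle by hours after DHT for Vcan and Sparc (thick lines) beside fibroblast and stroma genes (left) and smooth muscle genes (right), 1 array a point. The 3 collagen genes are at 0.60 or more from 12 h on, while Pdgfra, Pdgfrb and Thy1 (dashed) are below 0 from 12 h on.

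The genes most like the 3 widest-ranging members were looked for among 754 or 755 genes with a log2 range of at least 1 over the 7 arrays, by Pearson's r over those 7 arrays. For Sparc they were Col3a1 (0.989), Kif20a (0.981), a kinesin of cell division, and Acta1 (0.976), an actin. For Vcan they were Cks2 (0.985) and Cdk1 (0.977), which drive the entry into mitosis, and Sprr1a (0.979), of the cornified envelope. Thbs2 was less closely matched, by Gli2 (0.922), a transcription factor of hedgehog signalling, Wrnip1 (0.897) and Tspan4 (0.895). Kif20a had signals below the floor on 3 arrays (78.8 on vehicle, 79.5 at 1 h and 95.3 at 3 h), so its r rests in part on floored values, and its probe set is of the kind that can match related sequences. These values are a description over 7 arrays that share 1 scaling.

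Other genes of matrix biology were taken from 7 lists with 175 genes, of which 99 passed the filter by their brightest probe set. In none of the lists did a gene pass the adjusted threshold in limma in any contrast. Among 11 other proteoglycans, late against early, 4 were above 0 and 7 below, with a median log2 difference of -0.14, and 1 was lower and 0 higher at an unadjusted p under 0.05. That lower gene was under the floor on every late array. Among 20 other matricellular and matrix glycoproteins the median was -0.07, with 1 higher and 3 lower at that level. The higher one was Smoc1, a SPARC relative, at 0.46 (unadjusted p = 0.0276 in limma), and the lower ones were Ccn1 at -0.57, Ccn2 at -0.67 and Fbln1 at -0.27. Ccn1 was under the floor on every late array (135.9, 133.9 and 138.2), so its difference is a bound and its late values have no spread. Sparcl1, the closest relative of Sparc, was at 4146.3, 4434.4 and 5903.0 at 12, 18 and 24 h, against 6748.9, 5549.5 and 5535.1 at 1, 3 and 6 h. Smoc1, Ccn1, Fbln1 and Sparcl1 were picked after their values were seen.

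Of the 99 measured genes, 5 were at least 2-fold from vehicle at 2 or more times, and all were lower. Of all 6326 genes, 1.31 percent met this with every such time lower and 1.60 percent with every such time higher. Sdc4, a heparan sulfate proteoglycan of the cell surface that helps fibronectin adhesion, had 4209.6 on vehicle and 4157.1, 4503.9 and 1501.9 after 1, 3 and 6 h, followed by 1071.0, 3840.4 and 1703.3 after 12, 18 and 24 h. It was low at 6, 12 and 24 h but not at 18 h, so the late arrays span nearly its whole range (late minus early -0.67 ± 0.62 SE, adjusted p = 0.751 in limma). Ccn2, a matricellular growth factor, had log2 ratios to vehicle of -0.88 at 6 h, -1.27 at 12 h and -1.55 at 18 h. Tnxb, for tenascin X, which spaces collagen fibrils, was -1.39 at 12 h and -1.5 at 18 h but -0.18 at 24 h. Mmp11, a matrix protease of remodelling stroma, was -1.31, -1.37, -1.30 and -1.06 at 6, 12, 18 and 24 h. Chst3, which adds sulfate to chondroitin chains, had a signal of 318.8 on vehicle and was under the floor at 3, 18 and 24 h, so its log2 ratios of -1.13 there are bounds.

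Sugar chain synthesis, receptors, proteases and growth factors showed no called gene either. The 17 genes of glycosaminoglycan synthesis had a late-minus-early median of 0.01, with 10 above 0 and 0 of 17 at an unadjusted p under 0.05 either way. The 10 receptors had a median of -0.08, with 2 above 0. The 15 proteases and inhibitors had a median of -0.17, with 4 above 0. Timp1, an inhibitor of matrix proteases picked with its values known, had signals of 836.0, 673.6 and 721.5 at 12, 18 and 24 h, against 355.3, 503.6 and 596.6 at 1, 3 and 6 h. All 8 genes of TGF-beta and related factors were below 0, with a median of -0.13. Immediate early genes, of which 18 were measured, had a median of -0.33 with 3 above 0. Their median log2 ratio to vehicle was 0.28, 0.54 and -0.04 at 1, 3 and 6 h. At 3 h, 5 of 18 were at least 2-fold higher than vehicle, against 78 of all 6326 genes. Late against vehicle their median log2 difference was -0.17.

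**Figure D5:**
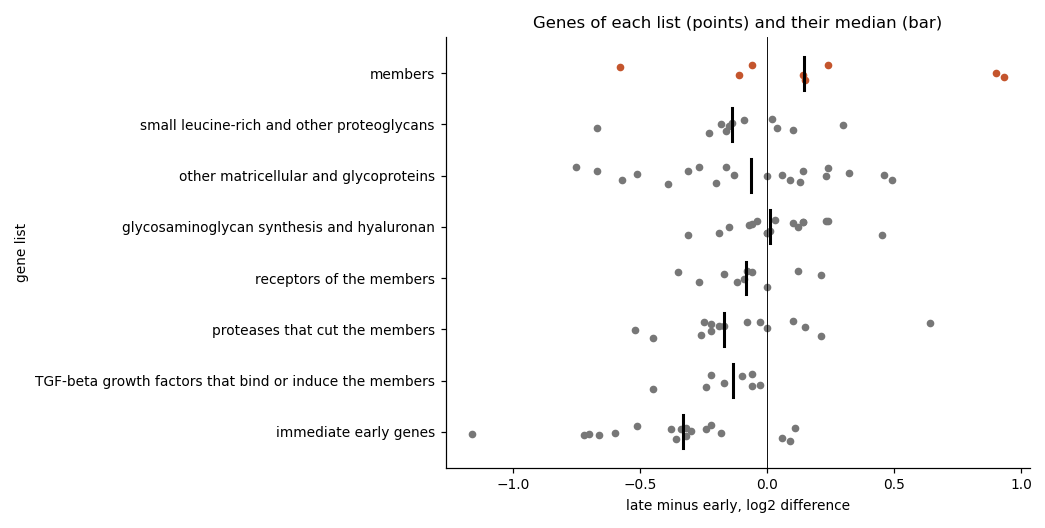
Late-minus-early log2 difference of every measured gene (points) in the member group and in 7 lists of related genes, by brightest probe set, with the median of each list as a bar. Vcan and Sparc are the 2 member points near 0.9, and of the other lists, the immediate early genes apart, the widest value is -0.75, for Tnxb.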

How the data were processed

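The authors deposited 1 signal intensity per probe set and array, and the submitters' processing notes name MAS5 without a version. Trimmed to the values between the percentiles 2 and 98, each array averaged 500.2, and no further scaling was applied to the deposited intensity. The table holds 12488 probe sets, 66 of them controls. Of the other 12422, 10833 named 1 gene, 396 several and 1193 none in the annotation table, and names were checked against GRCm38.p6. Signals were raised to a floor at the 40th percentile (145.9) and log2 was taken, and probe sets whose mean after that step was above the floor, which means at least 1 array above it, were tested. limma 3.58.1 in R 4.3.3 fitted early, late and vehicle arrays with a variance trend, 4 residual and 1.69 prior degrees of freedom. It was tested on simulated data with less scatter than the average of these arrays, which checks the code and not its power here. P-values measure the spread between arrays of different times, and the number of arrays limits precision. A fold change is 2 to the power of the log2 difference. The brightest probe set stood for a gene in lists. Genes named beyond the members are list genes at least 2-fold from vehicle at 2 or more times with a highest signal of at least 2 times the floor, the 3 genes most like each of the 3 widest-ranging members, and markers beside a result. Smoc1, Ccn1, Fbln1, Sparcl1 and Timp1 were chosen outside this rule, after their values were seen. The members and lists were chosen with earlier results of these data known. Alternatives changed the floor, scaling, filter, variance prior and fold threshold, or left out 1 array.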

Additional observations from a re-analysis of the deposited data

Results flagged for a closer look

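Thbs2 was above vehicle on all 3 early arrays and below it on all 3 late arrays, which drew attention to it. Its late-minus-early log2 difference was -0.58 ± 0.16 SE and missed the adjusted threshold in limma (adjusted p = 0.337). The difference ran between -0.67 and -0.23 over the 13 alternatives. Its late and early arrays do not overlap, so leaving out an array or moving the floor could not turn the sign.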

How the results depend on the processing

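Signal level and the number of arrays limit what these values show, and low signals such as those of Tnc sit near the floor. No paired analysis was possible because each group is 1 array. The every-late-array counts and their alternatives were chosen after seeing the data. Late against early, limma called 10 probe sets with 50 added in place of a floor, against 0 in the main setting, and 0 to 1 without 1 array (1 without 6 h). Early against vehicle, the 23 calls became 0 with 50 added, 13 with quantile normalization, 121 with no filter, 0 without a variance trend and 8 to 55 without 1 array. Late against vehicle, the 26 calls became 42 with the floor at the 60th percentile, 2 with 50 added, 15 with quantile normalization, 137 with no filter, 0 without a variance trend and 0 to 73 without 1 array (0 without 12 h or 18 h, 73 without 3 h). The cause was not tested.

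At 12 h the 2 members at least 2-fold from vehicle became 1 with 50 added, and at a 3-fold threshold 0 were left at 12, 18 and 24 h. These counts are given without the share of all tested probe sets at the same settings, and cannot be judged against it. Members with every late array above every early array were 2 to 4 without 1 array, and those below 1 to 2, where fewer arrays make separation easier by construction. Differences near 0 turned sign. Without 1 array, Dcn ran from -0.22 to 0.14 late minus early (0.04 without 3 h, 0.14 without 12 h), from -0.11 to 0.14 early minus vehicle and from -0.23 to 0.13 late minus vehicle. Early minus vehicle, Tnc ran from -0.02 to 0.10 and the Pald1 and Thbs1 probe set from -0.13 to 0.13. Late minus vehicle, Lum ran from -0.09 to 0.08 and was -0.07 with quantile normalization, and Fn1 ran from -0.14 to 0.01. Vcan passed the threshold at 1.14 late minus vehicle under 3 alternatives and at 0.83 late minus early with 50 added, with adjusted p in limma between 0.0138 and 0.195 and between 0.0386 and 0.415 over all alternatives. Of 367 alternatives for single differences of the members and the Pald1 and Thbs1 probe set, 350 kept their sign and their side of the threshold, 9 turned sign, 4 passed the threshold and 4 came to 0.00. Among the last was Thbs2 late minus vehicle, -0.28 in the main setting, with the floor at the 60th percentile, where both sides are at the floor. Dropping the filter or the variance trend, or an array outside the contrast, cannot change a difference. The count of 350 is therefore no measure of stability.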
